A study of Mus musculus with 20 samples.

Results

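The liver takes up, makes, esterifies and exports cholesterol. Hepatocytes build it from acetyl-CoA through the mevalonate pathway and, from squalene onwards, through lanosterol and a set of sterol intermediates, and the transcription factor SREBP-2 switches the genes of this route on together when sterols run low. HDL cholesterol enters through the receptor SR-BI, surplus sterol leaves into bile through the ABCG5/ABCG8 heterodimer, and sterol is loaded onto HDL through ABCA1. Methylation of cytosine at CpGs is usually absent from the CpG-rich promoters of such genes and high across gene bodies, with exceptions at regulatory elements.

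DNA methylation was examined at 27 named genes of cholesterol synthesis, uptake, esterification and efflux. Of these, 8 act in the mevalonate pathway and its branches, 9 from squalene synthase to cholesterol, 3 esterify cholesterol and 7 move it. The 27 were taken by name from the 51229 annotated autosomal genes, and all kept CpGs from 5 kb upstream of the gene start to the gene end were used. A CpG was kept when it had at least 10 reads in at least 3 libraries of every group. The genes held 818 of the 906622 kept autosomal CpGs, and 25 of the 27 genes held at least 1, with 4 to 109 CpGs in each. Acat2, the cytosolic thiolase at the head of the pathway, and Stard4, a carrier of sterol between membranes, held none.

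The livers came from male C57BL/6J mice in 4 groups of 5, for which the study's methods describe 5 litters per group. AME-d21 and AME-d0 were the offspring, at day 21 and at birth (day 0), of dams that ate a Western diet from before pregnancy through lactation and were stressed in late gestation, the adverse maternal environment (AME). Con-d21 and Con-d0 were the age-matched offspring of unstressed dams on a control diet. Newborns were delivered by C-section and the day 21 pups were fasted before sampling, so that age, feeding state and delivery cannot be told apart. Reduced representation bisulfite sequencing (RRBS) reads the fragments that the enzyme MspI cuts at CCGG, so that only the CpGs near such sites were measured. In bulk liver, a change in methylation within cells and a change in the share of a cell type cannot be told apart.

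The libraries held 23248139 to 45769589 reads summed over CpGs, and the median CpG had 7 to 13 reads. The library labelled AME-d21 replicate 4 carried, for every 100 autosomal reads, 2.88 from the X chromosome, where the other 19 carried 1.40 to 1.55, and 0.00167 from the Y chromosome, where the others carried 0.0171 to 0.0221. This goes against its male label, and only autosomes were analysed. Without this library, 40 CpGs were called between AME-d21 and AME-d0 in place of 53, 15 gene bodies as with it, 3 promoters in place of 2 (Mvd, lower at d21, was added) and 4 flanks in place of 3 (Tm7sf2, higher at d21, was added). No region was called between AME-d21 and Con-d21 with or without it. Leaving out any 1 library gave 37 to 41 called CpGs between AME-d21 and AME-d0, so the fall was not particular to replicate 4. Mvd was also added without AME-d21 replicate 2, and Tm7sf2 without AME-d0 replicate 5. Mean methylation over 598055 CpGs was 31.88% and 32.93% in AME-d0 replicates 1 and 3, against 33.68% to 34.19% in the other AME-d0 libraries.

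Sequences are shown first for 4 of the 8 stretches of CpGs called with age, 1 in each of Sc5d and Abcg8 and 2 in Scarb1, to show where such CpGs lie, 5′ to 3′ on the strand of the gene, with the CG of every kept CpG in capitals (GRCm38). They are 146 bases near the end of Scarb1 at chr5:125286064-125286209, which hold 10 CpGs of a 14-CpG stretch; a Scarb1 intron at chr5:125318083-125318192; a Sc5d intron at chr9:42261593-42261688; and the annotated start of Abcg8, which lies inside Abcg5, at chr17:84676165-84676317.
Scarb1, near the gene end: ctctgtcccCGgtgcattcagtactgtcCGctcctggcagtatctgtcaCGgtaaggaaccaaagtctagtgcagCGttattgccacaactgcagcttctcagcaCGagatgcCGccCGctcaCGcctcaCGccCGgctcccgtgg
Scarb1, intron: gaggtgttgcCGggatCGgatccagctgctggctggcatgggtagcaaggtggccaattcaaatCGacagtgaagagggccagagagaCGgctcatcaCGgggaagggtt
Sc5d, intron: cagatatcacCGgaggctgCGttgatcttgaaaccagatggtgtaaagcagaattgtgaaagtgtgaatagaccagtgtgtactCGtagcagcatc
Abcg8, annotated start: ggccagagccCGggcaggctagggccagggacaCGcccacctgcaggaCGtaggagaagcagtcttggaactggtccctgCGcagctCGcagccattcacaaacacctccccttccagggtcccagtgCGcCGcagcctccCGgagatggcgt

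A pair of promoters is shown for contrast, from RefSeq (GRCm38.p6), each as the 250 bases before the RefSeq start. The Lcat promoter at chr8:105943403-105943652 is CpG-poor and was partly methylated, and its 5 kept CpGs are in capitals. The Hmgcs1 promoter at chr13:119690101-119690350 is CpG-rich and was almost free of methylation, and its capitals mark TCACNCCAC, the core of the sterol regulatory element that SREBP-2 binds.
Lcat: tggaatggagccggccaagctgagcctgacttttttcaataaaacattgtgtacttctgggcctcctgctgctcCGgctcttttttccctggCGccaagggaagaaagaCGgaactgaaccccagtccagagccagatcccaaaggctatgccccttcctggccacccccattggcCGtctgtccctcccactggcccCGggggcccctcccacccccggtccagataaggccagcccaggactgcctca
Hmgcs1: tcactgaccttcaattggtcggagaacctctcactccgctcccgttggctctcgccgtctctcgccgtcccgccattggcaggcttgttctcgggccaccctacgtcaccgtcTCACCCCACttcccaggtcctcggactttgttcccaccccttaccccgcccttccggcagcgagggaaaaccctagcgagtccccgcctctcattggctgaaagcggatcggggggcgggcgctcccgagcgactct

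Promoter sequences matched for 20 of the 27 genes. TCACNCCAC was searched on both strands of the 300 bases from 250 before to 50 after the start, and was found in 1 of the 20, Hmgcs1, against 1.24% of 32851 promoters. CCAAT, the box bound by NF-Y, was found in 16 of the 20 (80%), against 37.4% of all promoters, and CG occurred a median of 17.5 times, against 7. At Hmgcs1 the matches to the 2 motifs do not overlap. A match is a description of the letters only.

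Promoters spanned the annotated gene start and 1 kb to each side of it, upstream flanks as the 4 kb beyond, and gene bodies as the rest to the gene end. Regions with at least 3 kept CpGs were tested: 19 promoters, 4 upstream flanks and 16 gene bodies of the cholesterol genes. The percent methylation of a region is the methylated share of all its reads. Its log2 ratio of methylated to unmethylated reads, 1 read added to each, was compared with limma and adjusted by Benjamini-Hochberg over all tested genes, and a region was called at an adjusted p under 0.05. A CpG was called at an unadjusted p under 0.001 in a quasi-binomial model with a difference of at least 10 percentage points.

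**Figure D1:**
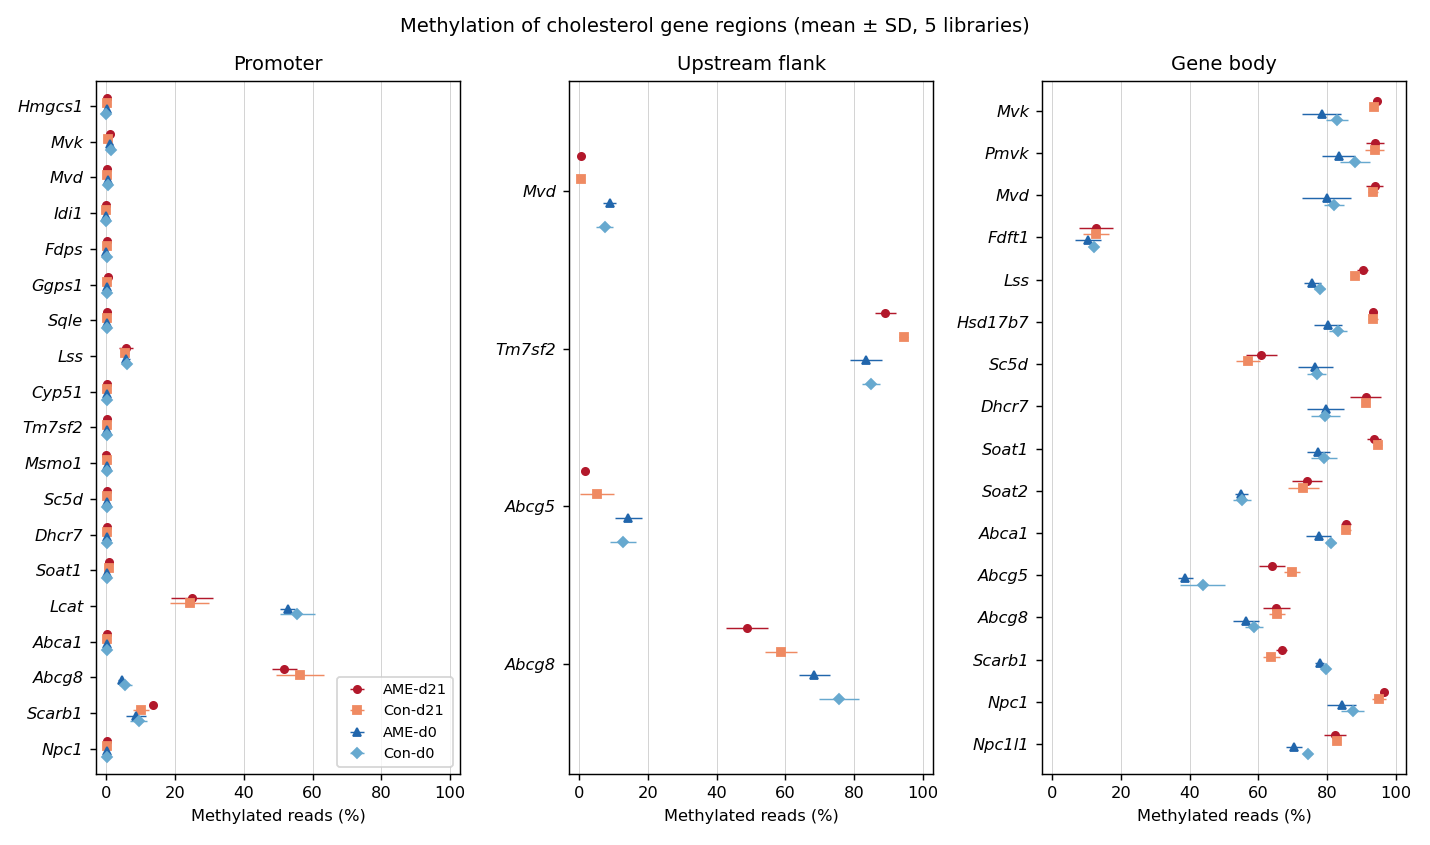
Percent of methylated reads (x axis) in the promoters, upstream flanks and gene bodies of the cholesterol genes, as mean ± SD of the 5 libraries of AME-d21, Con-d21, AME-d0 and Con-d0. Most promoters sit near 0 in all 4 groups, Abcg8 and Lcat part by age, and 14 of 16 gene bodies have the higher mean at d21, Fdft1 by the smallest difference, while Scarb1 and Sc5d have the lower.

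The first question was how these genes are methylated in the perinatal liver, whatever the group. Of the 19 promoters, 14 were under 2% methylated in every one of the 20 libraries, with a highest single value of 1.10%. In the mevalonate pathway these were Hmgcs1, which makes HMG-CoA, Mvd, the decarboxylase that makes isopentenyl diphosphate, Idi1, its isomerase, Fdps, the farnesyl diphosphate synthase, and Ggps1, which makes geranylgeranyl diphosphate. Further on they were Sqle, the squalene epoxidase, Cyp51, the lanosterol demethylase, Tm7sf2, a sterol C14-reductase, Msmo1, the C4-methyl oxidase, Sc5d and Dhcr7. The others were Soat1, Abca1, which loads cholesterol onto HDL, and Npc1, which carries cholesterol out of lysosomes. At the Cyp51 promoter, 15 of the 20 libraries had no methylated read among 679 or more reads, which allows a level of up to 0.442%, a limit for counting error only. At Idi1, all 20 libraries were at 0 with as few as 25 reads, which allows up to 12.0% in the shallowest.

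The other 5 promoters were at 2% or more in at least 1 library. The promoter of Mvk, mevalonate kinase, averaged 1.05% ± 1.28 in AME-d21, 0.447% ± 0.480 in Con-d21, 0.983% ± 0.797 in AME-d0 and 1.30% ± 0.585 in Con-d0. Errors here and below are SDs over the 5 livers of a group unless given as SE. That of Lss, which cyclises squalene epoxide to lanosterol, averaged 5.80% ± 2.06 in AME-d21, 5.52% ± 1.07 in Con-d21, 5.77% ± 1.06 in AME-d0 and 5.96% ± 1.20 in Con-d0. Scarb1, which encodes SR-BI, had 13.6% ± 0.939 in AME-d21, 10.1% ± 2.34 in Con-d21, 8.59% ± 2.98 in AME-d0 and 9.35% ± 2.39 in Con-d0. The Scarb1 value came from the outer CpGs: the 12 CpGs from 191 to 3 bp before its start had group means of at most 1.25%, and the 8 CpGs from 431 to 263 bp before it ranged up to 60.2% in AME-d21 and 52.6% in Con-d21. Lcat and Abcg8 are described with age.

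The second question was whether the maternal environment changed methylation at these genes. At d21, no promoter, flank or gene body of the cholesterol genes was called between AME-d21 and Con-d21 (background over all genes 0.0% for each region type), and none was called between AME-d0 and Con-d0 (background 0.0% for each). At an unadjusted p under 0.05, the d21 comparison held 1 of 19 promoters, 2 of 4 flanks and 2 of 16 gene bodies, against 5.07%, 5.16% and 4.62% of all genes. The Abcg8 flank and the Abcg5 gene body are both among these and share 5 CpGs. The d0 comparison held 2 of 19 promoters, 0 of 4 flanks and 1 of 16 gene bodies, against 5.4%, 6.19% and 7.15%. The difference between the 2 ages, tested as an interaction in 1 fit over all 20 libraries, was called for no region of these genes (background 0.0%). Its unadjusted p was under 0.05 for 2 promoters, 1 flank and 2 gene bodies, against 5.03%, 5.7% and 6.08% of all genes.

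The largest AME differences among promoters, in percentage points, were at Abcg8, Scarb1 and Lcat at both ages. At d21 the Abcg8 promoter had 51.7% ± 3.61 in AME-d21 and 56.3% ± 6.95 in Con-d21, a difference of -4.56 points (adjusted p = 0.999 by limma). Scarb1 differed by 3.498 points with an unadjusted limma p of 0.0633, and Lcat by 0.779 points. At d0 the Lcat promoter had 52.8% ± 2.16 in AME-d0 and 55.6% ± 5.08 in Con-d0, a difference of -2.85 points (adjusted p = 0.977 by limma). Abcg8 differed by -1.14 points and Scarb1 by -0.762 points at d0. None of these 6 differences was called. The Scarb1 promoter was the 1 of 19 whose groups did not overlap at d21, at 12.4% to 14.5% in AME-d21 and 6.28% to 11.9% in Con-d21. The share of all promoters without overlap was not counted, so this cannot be read as an excess. At d0 the Hmgcs1 promoter had 0.00%, 0.332%, 0.189%, 0.00% and 0.489% in AME-d0, against no methylated read in any Con-d0 library (unadjusted p = 0.00619 and adjusted p = 0.833 by limma). These are differences of a few reads. The others under an unadjusted p of 0.05 were Ggps1 at d0, with a difference of 0.202 points, and Msmo1 at d21, with -0.124 points.

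The flank of Tm7sf2 was the AME comparison with the smallest p. Its 7 CpGs were 90.2%, 87.3%, 89.7%, 85.2% and 93.0% methylated in the AME-d21 livers, against 94.9%, 96.1%, 93.6%, 92.9% and 94.5% in the Con-d21 livers. Only AME-d21 replicate 5 reached the range of the Con-d21 livers. The log2 difference was -0.996 ± 0.257 (SE), with an unadjusted p of 0.00203 and an adjusted p of 0.847 by limma, so that it was not called. At d0 the same flank had 83.5% ± 4.65 in AME-d0 and 84.8% ± 2.57 in Con-d0.

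The Abcg8 flank, whose 5 CpGs all lie in the gene body of Abcg5, had the largest AME difference in percentage points at both ages. At d21 it was 48.8% ± 6.21 in AME-d21 and 58.7% ± 4.53 in Con-d21 (-9.93 points, adjusted p = 0.896 by limma). The groups did not overlap, at 39.0% to 53.6% in AME-d21 and 54.2% to 66.1% in Con-d21, in this 1 of the 4 flanks. The share of all flanks without overlap was not counted. At d0 it was 68.4% ± 4.49 in AME-d0 and 75.6% ± 5.79 in Con-d0 (-7.28 points, adjusted p = 0.797 by limma). The Abcg5 flank differed by -3.46 points at d21 and 1.60 points at d0, and the Mvd flank by 0.0773 and 1.44 points. None of these was called.

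Among gene bodies, Abcg5 differed most at both ages, by -5.83 points at d21 (64.0% ± 3.85 in AME-d21, 69.8% ± 2.38 in Con-d21) and by -5.14 points at d0 (38.7% ± 2.20 in AME-d0, 43.8% ± 6.52 in Con-d0), with adjusted p of 0.999 and 0.708 by limma. Its 22 CpGs include the 5 of the Abcg8 flank and the 8 of the Abcg8 promoter, so the differences of these 3 regions are not separate results. At d21 the bodies of Sc5d and Scarb1 followed, with 3.87 and 2.996 points. At d0 they were Pmvk, the phosphomevalonate kinase, with -4.79 points, and Mvk with -4.42 points. At d0, 15 of the 16 bodies had the lower mean in AME-d0, with a median difference of -2.20 points, against -1.42 points over all 15854 gene bodies. The share of all gene bodies with the lower mean was not counted. AME-d0 replicates 1 and 3 had low methylation over all CpGs (31.88% and 32.93%). The d0 comparison was also run without these 2 libraries, again with no body called, but their part in the lower means was not tested. At d21, 6 of 16 had the lower mean in AME-d21, with a median of 0.102 points.

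No single CpG of the cholesterol genes was called in either AME comparison (background 0.000221% at d21, 2 of 906622 CpGs, and 0.000551% at d0, 5 CpGs). At an unadjusted p under 0.05 there were 13 CpGs at d21 (1.59%, against 1.48% of all CpGs) and 17 at d0 (2.08%, against 1.68%). The differences ranged between -19.9 and 14.4 points at d21 and between -15.8 and 16.8 points at d0. A likelihood-ratio test without overdispersion called 2 CpGs at d0 and 0 at d21, and limma per CpG called 0 at both. Calls over all CpGs were not counted for the likelihood-ratio test, and the background above belongs to the stricter quasi-binomial model. The 2 CpGs can therefore not be read as an excess. The 2 were chosen after their values were seen: an intronic CpG of Scarb1 47284 bp into the gene (chr5:125293810), with 81.6% ± 5.04 methylation in AME-d0 livers and 92.5% ± 3.02 in Con-d0, and an intronic CpG of Npc1l1, the intestinal sterol importer, at chr11:6211725, with 81.9% ± 8.83 in AME-d0 livers and 93.8% ± 3.09 in Con-d0.

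The third question was what happens between birth and day 21. Of the 19 promoters, 3 were called between Con-d21 and Con-d0 (background 23.9%, 20% higher and 3.92% lower) and 2 between AME-d21 and AME-d0 (background 24.4%, 21.2% higher and 3.24% lower). Abcg8 was higher and Lcat lower at d21 in both. Soat1, which esterifies cholesterol in many tissues, was higher in Con-d21 (0.712% ± 0.257) than in Con-d0 (0.138% ± 0.206), with an adjusted p of 0.0087 by limma. In AME livers its promoter had 0.634% ± 0.487 at d21 and 0.300% ± 0.0701 at d0 and was not called (adjusted p = 0.510), and the interaction had an unadjusted p of 0.0935.

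Abcg8 encodes a subunit of the transporter that secretes cholesterol and plant sterols into bile. The 8 CpGs at its annotated start, from 127 bp before to 4 bp after it, were 54.1%, 51.6%, 52.2%, 45.8% and 55.0% methylated in the AME-d21 livers, against 3.66%, 5.00%, 4.29%, 5.83% and 3.21% in the AME-d0 livers. In the controls they were 58.4%, 45.8%, 61.6%, 53.1% and 62.6% in Con-d21, against 6.86%, 5.71%, 2.10%, 6.53% and 6.49% in Con-d0. Every d21 library was above every d0 library. The log2 difference was 4.47 ± 0.260 (SE) in AME livers and 4.47 ± 0.339 in Con livers, with adjusted p of 1.89e-07 and 3.12e-06 by limma. All 8 CpGs were called in both comparisons.

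The annotated Abcg8 start is the outermost one annotated for the gene. The principal transcript starts 6819 bp further on, 110 bp from the start of Abcg5 in head-to-head orientation, and no kept CpG lay within 1 kb of it. The same 8 CpGs lie in the gene body of Abcg5, in a coding exon or an exon of a non-coding transcript. They are therefore 8 of the 22 CpGs behind the Abcg5 gene body value.

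Lcat encodes the plasma enzyme that esterifies cholesterol on HDL. Its promoter, with 10 kept CpGs, was 25.8%, 21.2%, 23.8%, 19.3% and 34.9% methylated in AME-d21, against 51.2%, 55.4%, 51.3%, 51.1% and 54.8% in AME-d0. In the controls it was 19.7%, 25.7%, 17.2%, 28.0% and 30.5% in Con-d21, against 51.7%, 54.5%, 64.4%, 52.8% and 54.5% in Con-d0. The ages did not overlap in either. The log2 difference was -1.75 ± 0.272 (SE) in AME livers and -1.98 ± 0.277 in Con livers (adjusted p = 0.000409 and 0.000238 by limma). A run of 4 intronic CpGs from 221 to 367 bp into the gene, where the gene Gm16156 also lies, carried called CpGs: 3 in the Con comparison and 1 in the AME comparison. A CpG 177 bp before the start was called in AME livers, at 15.1% ± 7.37 in AME-d21 and 65.2% ± 4.32 in AME-d0.

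Of the 4 upstream flanks, 4 were called between Con-d21 and Con-d0 (background 56.4%, 50.5% higher and 5.87% lower) and 3 between AME-d21 and AME-d0 (background 58.7%, 53.6% higher and 5.08% lower). Mvd had 0.544% ± 0.785 in AME-d21 and 8.78% ± 1.90 in AME-d0, and 0.467% ± 0.642 in Con-d21 and 7.34% ± 2.52 in Con-d0. The Abcg8 flank had 48.8% ± 6.21 in AME-d21 and 68.4% ± 4.49 in AME-d0, and 58.7% ± 4.53 in Con-d21 and 75.6% ± 5.79 in Con-d0. The Abcg5 flank, whose 4 CpGs lie in the Abcg8 gene body, had 1.67% ± 1.08 in AME-d21 and 14.2% ± 3.94 in AME-d0, and 5.13% ± 4.82 in Con-d21 and 12.6% ± 3.76 in Con-d0. These 3 flanks were lower at d21 in both comparisons. The Con call of the Abcg5 flank (adjusted p = 0.0268) was lost without Con-d0 replicate 1 (0.0548) or replicate 2 (0.0610, all by limma). The Tm7sf2 flank was higher in Con-d21, at 94.4% ± 1.24 against 84.8% ± 2.57 in Con-d0, and was not called in AME livers, at 89.1% ± 2.97 in AME-d21 and 83.5% ± 4.65 in AME-d0 (adjusted p = 0.0694 by limma). It was called there, also higher, without AME-d21 replicate 4, the library that goes against its male label (adjusted p = 0.0377), without AME-d0 replicate 5 (0.0374), in a fit of all 20 libraries (0.0343) and at a minimum of 20 reads (0.00975, all by limma). Over its 18 alternatives the adjusted p ranged between 0.00975 and 0.404. Its interaction had an adjusted p of 0.870.

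Gene bodies were called in 15 of 16 genes in each age comparison, 13 higher and 2 lower at d21. The background was 66.7% of gene bodies between Con-d21 and Con-d0 (61.4% higher and 5.27% lower) and 69.9% between AME-d21 and AME-d0 (66.0% higher and 3.93% lower). The median difference over the 16 bodies was 12.1 points in AME livers and 9.30 points in Con livers, against 8.08 and 6.43 points over all genes. Fdft1, squalene synthase, was the body not called, at 12.7% ± 4.94 in AME-d21 and 10.5% ± 3.77 in AME-d0, and 12.6% ± 3.77 in Con-d21 and 12.2% ± 0.762 in Con-d0.

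In the mevalonate pathway the bodies of Mvk, Pmvk and Mvd were higher at d21. Mvk had 94.5% ± 0.841 in AME-d21 and 78.4% ± 5.62 in AME-d0, and 93.6% ± 0.976 in Con-d21 and 82.8% ± 3.11 in Con-d0. Mvd had 93.9% ± 2.46 in AME-d21 and 79.9% ± 7.08 in AME-d0, and 93.4% ± 1.40 in Con-d21 and 82.1% ± 2.90 in Con-d0. Pmvk rose by 10.6 points in AME livers and 5.72 points in Con livers, from only 4 CpGs. Its ages overlapped in range in both, and its adjusted p in Con livers was 0.0316 by limma.

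Between squalene and cholesterol, the bodies of Lss, Hsd17b7 and Dhcr7 were higher and that of Sc5d lower. Lss had 90.4% ± 1.58 in AME-d21 and 75.7% ± 2.34 in AME-d0, and 88.1% ± 1.22 in Con-d21 and 77.9% ± 1.59 in Con-d0. Hsd17b7, a 3-ketosteroid reductase gene, had 93.5% ± 1.12 in AME-d21 and 80.3% ± 4.09 in AME-d0, and 93.4% ± 1.37 in Con-d21 and 83.2% ± 2.54 in Con-d0. Dhcr7, which makes cholesterol from 7-dehydrocholesterol, had 91.4% ± 0.770 in Con-d21 and 79.5% ± 4.21 in Con-d0, and rose by 11.6 points in AME livers.

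Sc5d encodes the sterol C5-desaturase that makes 7-dehydrocholesterol. Its gene body, with 8 kept CpGs, had 58.7%, 56.6%, 57.4%, 64.8% and 66.7% in AME-d21, against 72.3%, 76.1%, 82.9%, 70.97% and 80.3% in AME-d0. In the controls it had 52.0%, 55.0%, 58.5%, 61.1% and 58.1% in Con-d21, against 74.2%, 78.4%, 75.3%, 76.0% and 80.9% in Con-d0. The ages did not overlap, and the log2 difference was -1.07 ± 0.214 (SE) in AME livers and -1.33 ± 0.146 in Con livers (adjusted p = 0.000936 and 2.23e-05 by limma). The intronic stretch printed above, 2579 to 2653 bp into the gene, held 3 CpGs that were called in both comparisons. Its level was 19.6% ± 5.85 in AME-d21, 25.3% ± 0.743 in Con-d21, 65.8% ± 2.84 in AME-d0 and 67.8% ± 5.85 in Con-d0. The Sc5d promoter had group means of 0.0510% to 0.176%.

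The esterification genes Soat1 and Soat2 were higher at d21. Soat1 had 93.7% ± 1.996 in AME-d21 and 77.5% ± 3.49 in AME-d0, and 94.7% ± 1.25 in Con-d21 and 79.2% ± 3.78 in Con-d0. Soat2, the enzyme of liver and intestine that makes cholesteryl esters for lipoproteins, had 74.2% ± 4.44 in AME-d21 and 55.1% ± 1.97 in AME-d0, and 73.1% ± 4.59 in Con-d21 and 55.3% ± 2.57 in Con-d0. Within Soat2, 8 CpGs between 10032 and 10135 bp, in a coding exon and the intron beside it, had 74.6% ± 9.71 in AME-d21, 74.6% ± 4.18 in Con-d21, 43.0% ± 5.26 in AME-d0 and 47.7% ± 5.93 in Con-d0. In each age comparison, 4 of these 8 were called.

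Among the transport genes, Abca1, Abcg5, Abcg8, Npc1 and Npc1l1 were higher in the body at d21. Abcg5 had the largest difference of all 16, with 69.8%, 62.4%, 63.6%, 59.3% and 64.9% in AME-d21, against 37.5%, 39.8%, 41.1%, 35.5% and 39.6% in AME-d0. In the controls it had 70.7%, 67.8%, 72.4%, 66.9% and 71.4% in Con-d21, against 36.9%, 48.6%, 51.0%, 37.1% and 45.7% in Con-d0. The groups did not overlap by age. Against this direction, 2 CpGs in a coding exon of Abcg5, 10802 and 10811 bp into the gene, were lower at d21: the first was 36.5% ± 8.71 in AME-d21, 47.3% ± 5.66 in Con-d21, 71.8% ± 6.29 in AME-d0 and 82.4% ± 5.67 in Con-d0. These are 2 of the 5 CpGs of the Abcg8 flank. The Abcg8 body had 65.2% ± 4.04 in AME-d21 and 56.4% ± 3.84 in AME-d0, and 65.5% ± 2.32 in Con-d21 and 58.7% ± 2.62 in Con-d0. Npc1l1 had 82.2% ± 3.18 in AME-d21 and 70.4% ± 2.29 in AME-d0, and 82.8% ± 0.782 in Con-d21 and 74.4% ± 1.30 in Con-d0. Npc1, with 7 CpGs, rose by 12.3 points in AME livers and 7.74 points in Con livers.

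Scarb1 was the other gene body that was lower at d21. Over 89 CpGs it had 66.7%, 66.0%, 68.9%, 67.6% and 64.6% in AME-d21, against 77.3%, 79.4%, 76.7%, 77.0% and 79.2% in AME-d0. In the controls it had 63.0%, 64.7%, 59.8%, 66.3% and 65.0% in Con-d21, against 79.8%, 78.8%, 78.3%, 78.9% and 81.9% in Con-d0. No d21 library reached the d0 range. The log2 difference was -0.81 ± 0.128 (SE) in AME livers and -1.15 ± 0.119 in Con livers, with adjusted p of 0.00018 and 1.57e-05 by limma. The interaction had an unadjusted p of 0.0428 and an adjusted p of 0.810.

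**Figure D2:**
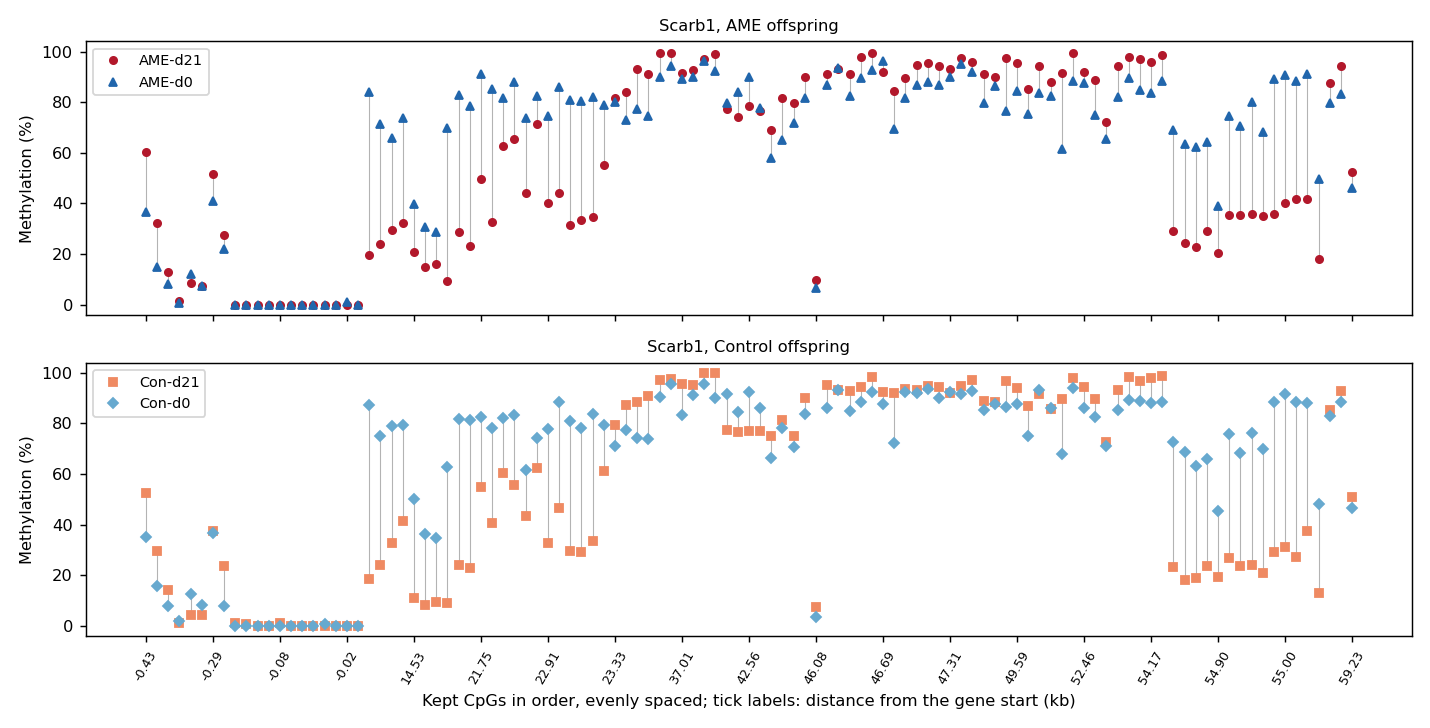
Mean methylation (%, y axis) of the 109 kept CpGs of Scarb1, in order along the gene and evenly spaced, for AME-d21 and AME-d0 (upper panel) and Con-d21 and Con-d0 (lower panel), with grey lines joining the ages. Between 10883 and 23334 bp, 14 of 23 CpGs were called lower at d21 in Con livers and 10 in AME livers. Between 54710 and 55020 bp, 14 of 14 were called lower in Con livers and 13 in AME livers. The 42 CpGs from 36875 to 52608 bp include none that was called.

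The lower level of Scarb1 at d21 came from separate places in the gene. Near the gene end, 14 CpGs between 54710 and 55020 bp, in an exon of a non-coding transcript (chr5:125286074-125286384), had 31.3%, 23.7%, 36.0%, 32.5% and 30.6% in AME-d21, against 69.7%, 67.9%, 72.2%, 69.6% and 75.6% in AME-d0. In the controls they had 20.4%, 27.2%, 23.7%, 24.9% and 23.7% in Con-d21, against 72.7%, 73.3%, 68.7%, 71.3% and 73.4% in Con-d0. The ages were far apart, and 14 of the 14 CpGs were called in Con livers and 13 in AME livers. All 14 CpGs had the higher mean in AME-d21 than in Con-d21 (30.8% ± 4.50 against 24.0% ± 2.47 for the stretch). None was called between them, and the lowest unadjusted p was 0.0313 by the quasi-binomial model. The 14 CpGs lie within 311 bp and were read in the same livers, so they are not 14 separate observations. The stretch was also chosen by calls that use these d21 values.

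The other 3 Scarb1 stretches lie in introns. The one printed above, 22913 to 23001 bp into the gene, had 36.6% ± 11.6 in AME-d21, 34.4% ± 4.14 in Con-d21, 81.1% ± 6.52 in AME-d0 and 82.2% ± 2.34 in Con-d0. A stretch at 21680 to 21771 bp, where the gene Gm42633 also lies, had 28.7% ± 10.7 in AME-d21, 30.4% ± 9.70 in Con-d21, 81.5% ± 7.38 in AME-d0 and 77.3% ± 4.69 in Con-d0. The last, at 10883 to 11059 bp, had 26.6% ± 6.48 in AME-d21, 29.0% ± 9.91 in Con-d21, 72.4% ± 4.29 in AME-d0 and 79.0% ± 4.08 in Con-d0. In each, all d21 libraries were below all d0 libraries, and the largest drop at a single CpG was 68.7 points in Con livers. All 4 Scarb1 stretches were chosen by calls between the ages, so the gap between the ages follows largely from that choice.

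**Figure D3:**
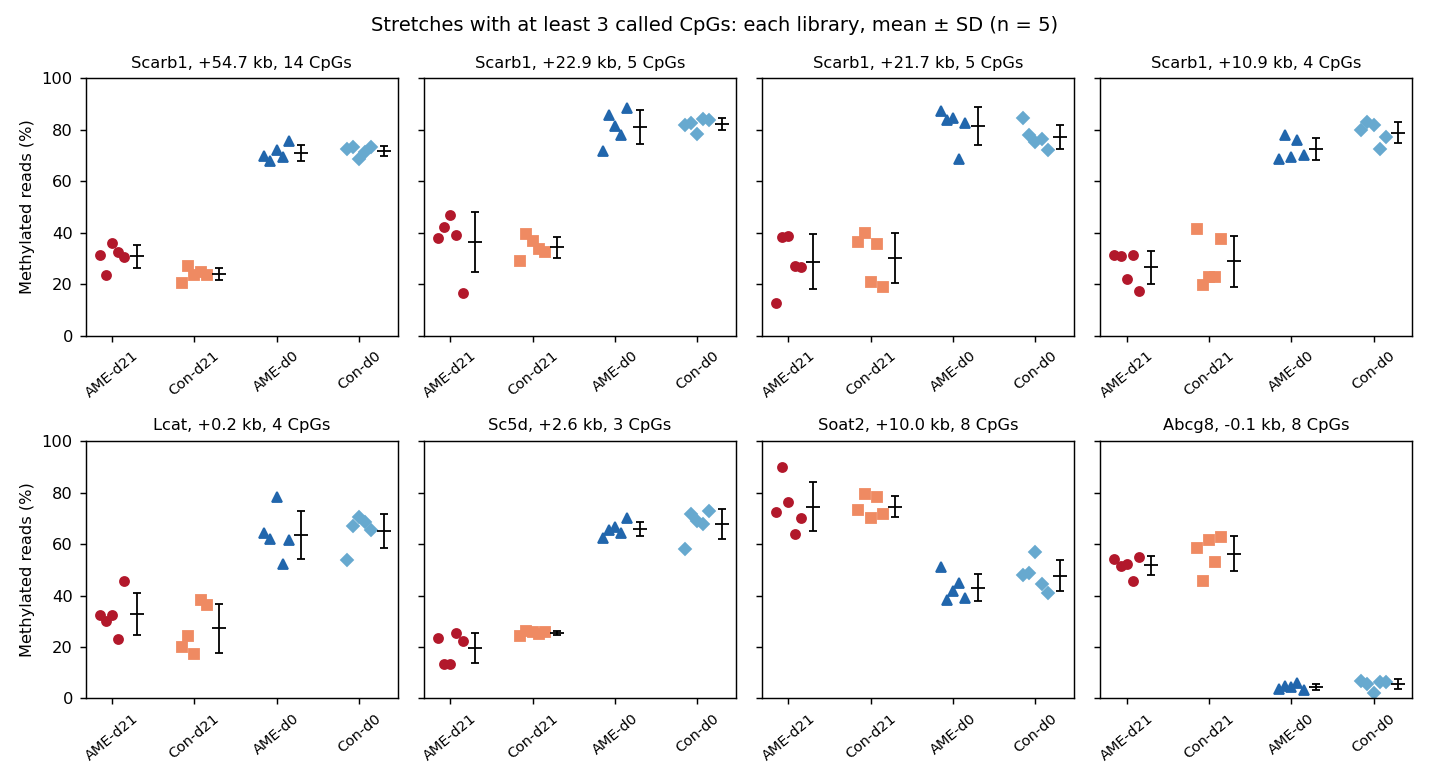
Percent of methylated reads (y axis) in the 8 stretches with at least 3 called CpGs, with a point for each library and the mean ± SD of 5 beside it, for AME-d21, Con-d21, AME-d0 and Con-d0. Titles give the gene, the distance from its start and the number of CpGs. In every stretch the d21 libraries lie apart from the d0 libraries, which follows largely from choosing stretches by calls between the ages. The AME and Con libraries of 1 age overlap in range.

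Counted by CpG, 53 of the 818 were called between AME-d21 and AME-d0 (6.48%; background 3.15%, 2.59% higher and 0.562% lower) and 60 between Con-d21 and Con-d0 (7.33%; background 3.25%, 2.51% higher and 0.74% lower). In AME livers 19 were higher and 34 lower, and in Con livers 21 were higher and 39 lower. Scarb1 held 23 of the 34 and 28 of the 39. The other genes held 11 lower CpGs in each comparison, and 4.23% of their 709 CpGs were called in AME livers and 4.51% in Con livers. In the cholesterol genes, 64.2% of the called CpGs were lower in the AME comparison and 65.0% in the Con comparison, against 17.8% and 22.8% of the called CpGs among all 906622 kept autosomal CpGs. By limma per CpG, 42.9% and 45.5% of the called CpGs of these genes were lower. The direction over all CpGs was not counted for limma, so the 17.8% and 22.8% of the quasi-binomial model are no background for these shares. Of the 68 CpGs called in at least 1 of the comparisons, 45 were called in both and 68 moved the same way in both.

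The called CpGs formed 8 stretches of at least 3, 6 lower and 2 higher at d21, and the rest stood alone or in pairs. In Abca1, a pair of intronic CpGs 15586 and 15703 bp into the gene was lower, the first at 19.8% ± 8.93 in AME-d21, 23.7% ± 4.53 in Con-d21, 50.9% ± 6.75 in AME-d0 and 57.6% ± 6.54 in Con-d0. This pair went against the Abca1 body as a whole, which was 85.5% ± 1.53 in AME-d21 and 77.5% ± 3.64 in AME-d0, and 85.6% ± 1.37 in Con-d21 and 81.3% ± 1.33 in Con-d0. In Fdft1, a CpG of a coding exon 20480 bp into the gene had 40.6% ± 7.95 in AME-d21, 32.2% ± 5.44 in Con-d21, 92.1% ± 3.13 in AME-d0 and 86.4% ± 10.2 in Con-d0, on 11 to 35 reads. Single intronic CpGs were higher at d21 in both comparisons in Mvk (11788 bp), Lss (9637 bp) and Soat1 (22869 bp).

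**Figure D4:**
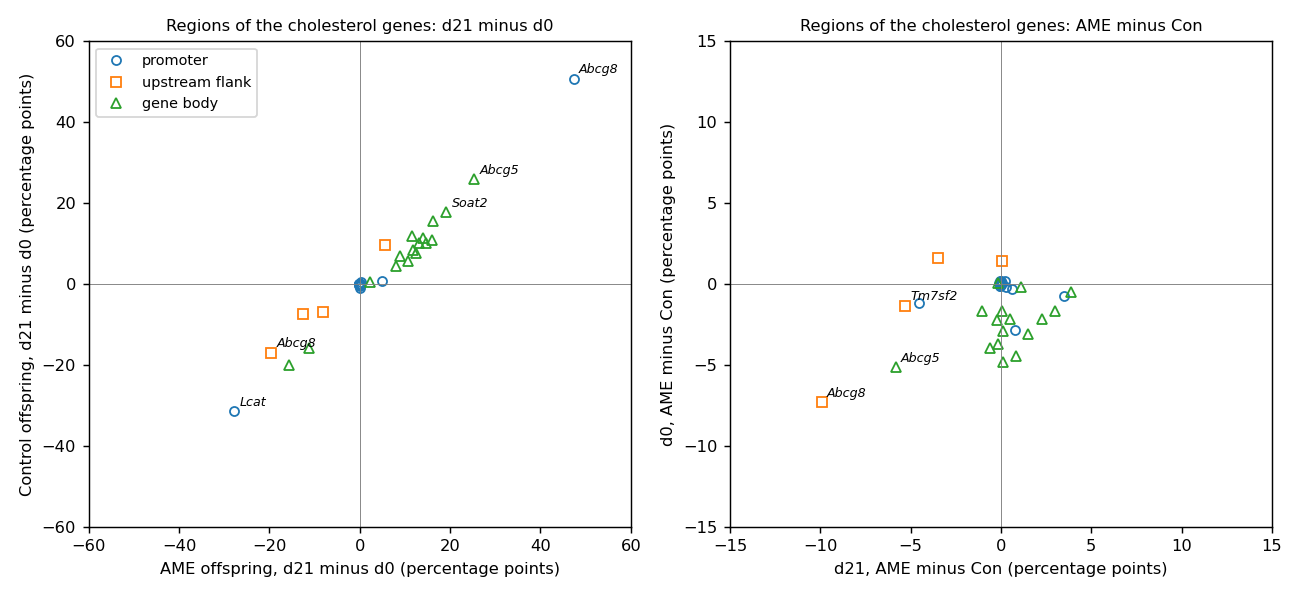
Differences in percent methylation of the promoters, upstream flanks and gene bodies of the cholesterol genes, in percentage points. Left, d21 minus d0 in AME offspring (x axis) and in Con offspring (y axis), where Abcg8 reaches 47.3 and 50.8 points and Lcat -27.8 and -31.4; right, AME minus Con at d21 (x axis) and at d0 (y axis) on a narrower scale, where the Abcg8 flank lies furthest out at -9.93 and -7.28.

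Other genes of cholesterol metabolism gave a background for these counts. Of a list of 34 further genes, 25 had a tested gene body, of which 14 were higher and 2 lower between AME-d21 and AME-d0, and 9 higher and 4 lower between Con-d21 and Con-d0. Of 21 tested promoters, 3 were higher and 2 lower in the AME comparison, and 4 higher and 2 lower in the Con comparison. Of 7 tested flanks, 4 were higher and 1 lower in each. No region of the list was called between AME and Con at either age.

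Promoters of marker genes of the cell types of the perinatal liver moved with age as well. Over all promoters, 20% were called higher and 3.92% lower in Con livers, and 21.2% and 3.24% in AME livers. Of 12 hepatocyte markers, 4 promoters could be tested and 4 were lower at d21, with a median of 24.7% in AME-d21 and 57.2% in AME-d0, and 23.7% in Con-d21 and 59.6% in Con-d0. Of 15 markers of haematopoietic progenitors and myeloid cells, 8 could be tested and 7 were higher, with a median of 51.7% in AME-d21 and 16.0% in AME-d0, and 53.3% in Con-d21 and 21.3% in Con-d0. For 12 erythroid markers it was 3 of 4 tested, with a median of 55.4% in AME-d21 and 28.6% in AME-d0, and 53.9% in Con-d21 and 29.0% in Con-d0. Of 7 Kupffer cell markers the 1 tested was higher, and of 8 endothelial markers 2 of 3. Marker gene bodies did not all move the way of the promoters. Over all gene bodies, 61.4% were called higher and 5.27% lower in Con livers, and 66.0% and 3.93% in AME livers. Of 6 hepatocyte bodies, 1 was higher and 3 lower in Con livers, and 0 and 2 in AME livers. Of 6 erythroid bodies, 1 was higher and 1 lower in each. Of 10 haematopoietic and myeloid bodies, 7 were higher in Con livers and 8 in AME livers. Of 7 endothelial bodies, 3 and 4 were higher, and of 2 Kupffer cell bodies 1 in each. The part of cell composition in the age differences of the cholesterol genes was not tested.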

How the data were processed

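RRBS libraries of 20 livers were analysed in 4 groups of 5, taken from the sample labels. For each library the authors deposited, per CpG, the count of methylated and of unmethylated reads and the percent methylation, which is the methylated count over the sum; the deposited counts and percent values are not normalized. Tools listed without versions in the submitters' processing notes are Bismark, BWA, Trim Galore and FastQC, and the build is mm10. On read deduplication the sources used here give nothing. The study's methods name MspI digestion and a p of 0.001 with a difference of 10% for a CpG, not the test.

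Gene starts and ends came from GENCODE M21. Positions were checked for a CG in GRCm38, and the X and Y chromosomes were left out. Reads of the kept CpGs were summed per region and compared with limma 3.58.1 (R 4.3.3), in a fit of the 10 libraries of each of 4 comparisons and in 1 fit of 20 for the interaction. CpGs were tested in libraries with at least 10 reads with a quasi-binomial model, overdispersion floored at 1 (Python 3.11.15, statsmodels 0.14.6, numpy 2.4.6, scipy 1.17.1, pandas 2.3.3). Figures were drawn with matplotlib 3.10.9. PCR duplicates may remain, so that read numbers overstate independent molecules, and limits given for 0 reads (3 reads over the depth) cover counting error only. P-values measure the spread between libraries; the labels do not name litters.

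Members, gene lists and tests were chosen with earlier results of these data known. Named are all called regions, at most 8 per comparison and region type, or the 3 largest differences where none was called, and runs of at least 3 called CpGs within 200 bp of each other. The tests were tested on simulated data. Alternatives were the coverage minimum (5 or 20 reads), 10 reads in all 20 libraries, region width and CpG number, the mean of CpG percents, a shared fit, other tests and thresholds per CpG, the replicate number as a block, and libraries left out. The start of the principal transcript in place of the gene start was added after seeing the data.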

Additional observations from a re-analysis of the deposited data

Results flagged for a closer look

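In 4 of 100 groups of 5 libraries, 1 library lay far from the others; chance gives about 1 in 20. The Lcat promoter of Con-d0 replicate 3 was at 64.4% on 253 reads, where the other 4 Con-d0 libraries were between 51.7% and 54.5%. The Abcg8 promoter of the same library was at 2.1% on 238 reads, where the others were between 5.71% and 6.86%. The stretch of 8 CpGs shared by Abcg5 and Abcg8 consists of the same CpGs and gave the same value, 2.1%. The Scarb1 stretch 21680 to 21771 bp into the gene was at 68.7% in AME-d0 replicate 4 on 150 reads, where the other AME-d0 libraries were between 82.5% and 87.5%. Without Con-d0 replicate 3, 4 promoters in place of 3 and 48 CpGs in place of 60 were called between Con-d21 and Con-d0. Leaving out any 1 library of this comparison gave 3 to 5 promoters and 45 to 50 CpGs.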

How the results depend on the processing

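The AME comparisons and interactions gave 0 called regions under every alternative run, and 0 called CpGs except for the 2 by the likelihood-ratio test at d0. Of the 815 alternative values of the named regions, 813 kept their side of the threshold. The other 2 lost the call, both for the Abcg5 flank in Con livers, as given above. No called region among the named ones changed direction under an alternative. Direction was not compared for called gene bodies beyond the 8 named per comparison, nor for regions that were not called. Leaving out 1 library at a time gave 37 to 41 called CpGs between AME-d21 and AME-d0 (53 with all) and 45 to 50 between Con-d21 and Con-d0 (60 with all), 15 gene bodies each time in AME livers and 14 to 15 in Con livers, 3 to 4 flanks in each, and 2 to 3 (AME) and 3 to 5 (Con) promoters, the 5 without Con-d21 replicate 2.

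Regions that were tested but not called with age, and that an alternative called, were the promoters of Mvd, Scarb1, Npc1 and Lss and the Tm7sf2 flank in AME livers and the promoters of Mvd, Mvk and Msmo1 in Con livers, each under 1 to 4 of its 18 to 20 alternatives.

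The numbers of called CpGs moved most. Between AME-d21 and AME-d0, the likelihood-ratio test called 146, limma per CpG 112, and there were 34 at a minimum of 20 reads and 29 without AME-d0 replicates 1 and 3. Between Con-d21 and Con-d0, the likelihood-ratio test and limma per CpG called 136 and 110. No share over all CpGs is given beside the counts of these tests, so they cannot be read as an excess. At a minimum of 20 reads, 2 of the flanks could still be tested in the Con comparison and 2 were called. With the start of the principal transcript, 1 promoter was called between AME-d21 and AME-d0, since no kept CpG lay near that start of Abcg8. Libraries with the same replicate number did not deviate together (correlations between -0.0621 and 0.0479, at most 1 of 5 best with its own number), so that the numbers do not pair them. With the replicate number as a block, 11 CpGs were called in AME livers and 22 in Con livers.

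RRBS left 8 of 27 promoters and 9 of 27 gene bodies without a kept CpG. Single CpGs rested on as few as 10 reads, and differences under 10 points at a CpG were not called by the rule.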
